A study of Sorghum bicolor with 14 samples.

Results

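Soft dough was compared with the milky stage in the middle stem internode of the grain sorghum variety M35-1 (Sorghum bicolor), as the difference in log2(FPKM + 1) between the pooled columns of these stages. FPKM is the number of sequenced fragments scaled to a transcript of 1 kilobase and to 1000000 mapped fragments. A locus was a member when it reached 1 FPKM in the higher of the 2 columns, which 17947 of the 34755 loci of the development table did. The plants of both stages grew in a fertilized and regularly watered field bed in New Delhi, and the labels name no treatment or genotype that sets the stages apart. Each stage had 2 libraries of total RNA, and the deposited column of a stage is the authors' pooled value, so that no difference below has a replicate check, an SD or a p-value. The series also holds floral initiation and booting, the 2 earlier stages of the field plants. Its 3 drought groups were grown 1 plant to a pot and harvested at booting at about 13% (D1), 7% (D2) and 2% (D3) soil moisture, after watering had stopped at the flag leaf stage. There were 2 libraries in each of the 7 groups.

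In a filling sorghum grain the milky stage is the time of a liquid endosperm, and at soft dough starch has made the endosperm pasty. During this time the stem internode conducts sugars and nitrogen to the panicle, stores and releases sucrose in its pith, and carries the weight of the head with lignified walls around its vascular bundles. These statements are background. The file gives sorghum annotation IDs with no names, and 0 of its 34129 different IDs matched the reference table of 32945 genes, so no locus below is given a function and the labelled tissue was not checked against marker genes. By a fixed rule for this case 4 loci are named by ID, and other loci are given by the position printed in the file, with the genome build not given in the sources used. In a whole internode, fewer cells of a type and less RNA per cell cannot be told apart.

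Most of the internode transcriptome differed little between the 2 grain filling stages, and where it differed more loci were higher than lower at soft dough. Of the 17947 measured loci, 1355 (7.55%) were called higher and 767 (4.27%) lower, where a call is a difference of at least 1 log2 unit. The 2 directions together made 11.8%. The median log2 change of measured loci was -0.01, and 11770 loci (65.6%) lay within 0.5 log2 units of 0. The 5th percentile was -0.94 and the 95th was 1.26. Larger changes were also more often upward, with 303 higher and 149 lower by at least 2 log2 units. The numbers were 83 and 41 by at least 3, and 16 and 3 by at least 5. Most members of a run of 6 neighbouring loci on chromosome 6, described below, are among the 16. The call threshold cuts through a continuous range: 206 loci were higher by 1 to 1.1 log2 units and 272 just missed the call at 0.9 to 1, and on the lower side these numbers were 133 and 194. Likewise 240 members had 1 to 1.1 FPKM in their higher column and 276 loci at 0.9 to 1 FPKM stayed outside.

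**Figure D1:**
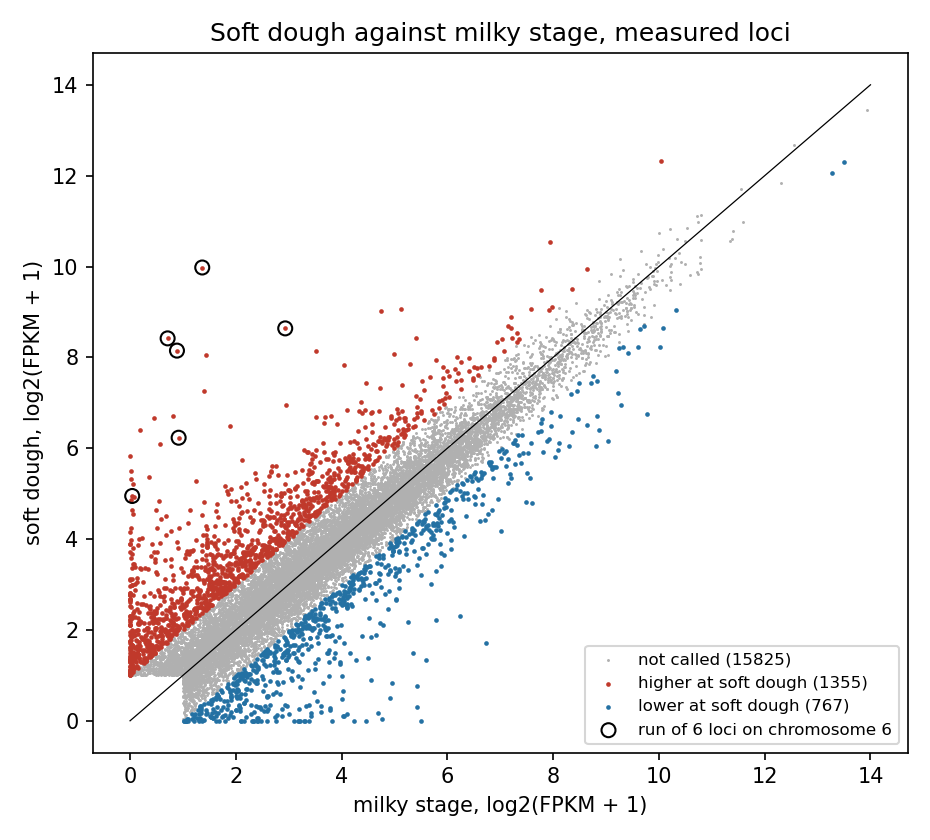
Each point is 1 of the 17947 measured loci, with its log2(FPKM + 1) at the milky stage on the horizontal axis and at soft dough on the vertical axis. Loci called higher (1355) are red, loci called lower (767) blue and the others grey, the line marks equal values, and circles mark 6 neighbouring loci of chromosome 6 that lie far above it.

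Counted in FPKM as deposited, more was lost than gained. The column sum was 698065 FPKM at the milky stage and 653666 at soft dough, a net change of -44399 FPKM that is 0 by construction when both columns are rescaled to the same sum. All loci that were higher gained 87116 FPKM between them, and all that were lower lost 131515. Among called loci the amounts were close, with 37097 FPKM gained by those higher (42.6% of the gain) and 37639.7 lost by those lower (28.6% of the loss). In the class of 100 FPKM or more the median log2 change was -0.16, and in the class from 1 to 2 FPKM it was 0.08.

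The 2 largest losses took 9.31% of all FPKM lost. The locus on chromosome 2 at 69501545 to 69504021 stood at 6862 FPKM in the floral initiation column and at 12144, 11606 and 5023 FPKM in the booting, milky stage and soft dough columns. The drought columns were at 10118, 8335 and 11629 FPKM for it, each above soft dough, though the drought table was normalized separately. A locus with 2 IDs on chromosome 3, at 70717672 to 70722503, had 4617, 7332, 9939 and 4281 FPKM along the stages, and 8804, 5314 and 4279 FPKM at D1 to D3. Among the stages both loci were lowest at soft dough, and both were called lower against the milky stage, each with a log2 change of -1.21.

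The largest gain, 4.67% of all FPKM gained, belonged to a locus that carries no ID. It lies on chromosome 9 at 1187763 to 1188696 and its columns read 2399.8, 1646, 1049 and 5119 FPKM from floral initiation to soft dough. Its level thus declined over the first 3 columns and was highest in the last. The next largest gain was on chromosome 10 at 51567423 to 51568369, where 244 FPKM at the milky stage stood against 1490.4 at soft dough. That locus was at 52.9, 61.4 and 125 FPKM at D1, D2 and D3, below soft dough in each.

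The largest rises on the log2 scale were on the short stretch of chromosome 6 circled in the scatter plot. Sobic.006G025900, at 4669311 to 4670061, went from 11.9 FPKM at floral initiation and 0.102 at booting to 1.58 at the milky stage and 1008 at soft dough. The last step is a log2 change of 8.61. In the drought columns it was listed at 0, at 0.0206 and at 0.0406 FPKM. Soft dough was therefore the only column of the 7 above 12 FPKM. Sobic.006G025400, at 4498652 to 4499488, had 2.47, 0.237, 0.636 and 341 FPKM in the same order, a last step of 7.71 log2 units. The drought table joins it with another ID over a longer range, so no drought value is set beside it.

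These loci belong to 6 neighbouring measured loci between 4498652 and 4684050 that were all called higher. The run spans 185398 bp and its members changed by 4.91 to 8.61 log2 units. The second member, with 3 IDs at 4526387 to 4561102, had 0.890 FPKM at the milky stage and 74.1 at soft dough. The third, at 4575036 to 4575766, had 0.0284 and 29.9 FPKM. The fifth, at 4676586 to 4678325, had 0.849 and 282.8 FPKM, and the sixth, at 4682490 to 4684050, had 6.64 and 397 FPKM. All 6 shared one course. They had from 0.829 to 29.04 FPKM at floral initiation, a lower level at booting, from a listed 0 to 3.54 FPKM, and the highest at soft dough. The 4 members with the same range in the drought table did not exceed 3.33 FPKM there.

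The neighbours of the run did not all share its course. The locus just beyond its end, at 4684162 to 4685808, stayed at or below 0.220 FPKM in all 4 stages, and the next, at 4692472 to 4698919, had 15.4 FPKM at the milky stage and 13.7 at soft dough. Before the run, 4388230 to 4395898 had 4.69 and 9.32 FPKM and was not called, and 4307638 to 4314232 was called lower, from 8.06 to 3.29 FPKM. Farther out, the locus at 4271548 to 4273358 had 0.840, 1.74, 1.63 and 153 FPKM along the stages. At 4725936 to 4726743 the level was listed at 0 at floral initiation and stood at 9.63, 11.7 and 92.98 FPKM in the 3 later stages. The printed values do not show whether these loci have similar sequences or share fragments, and this was not tested.

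**Figure D2:**
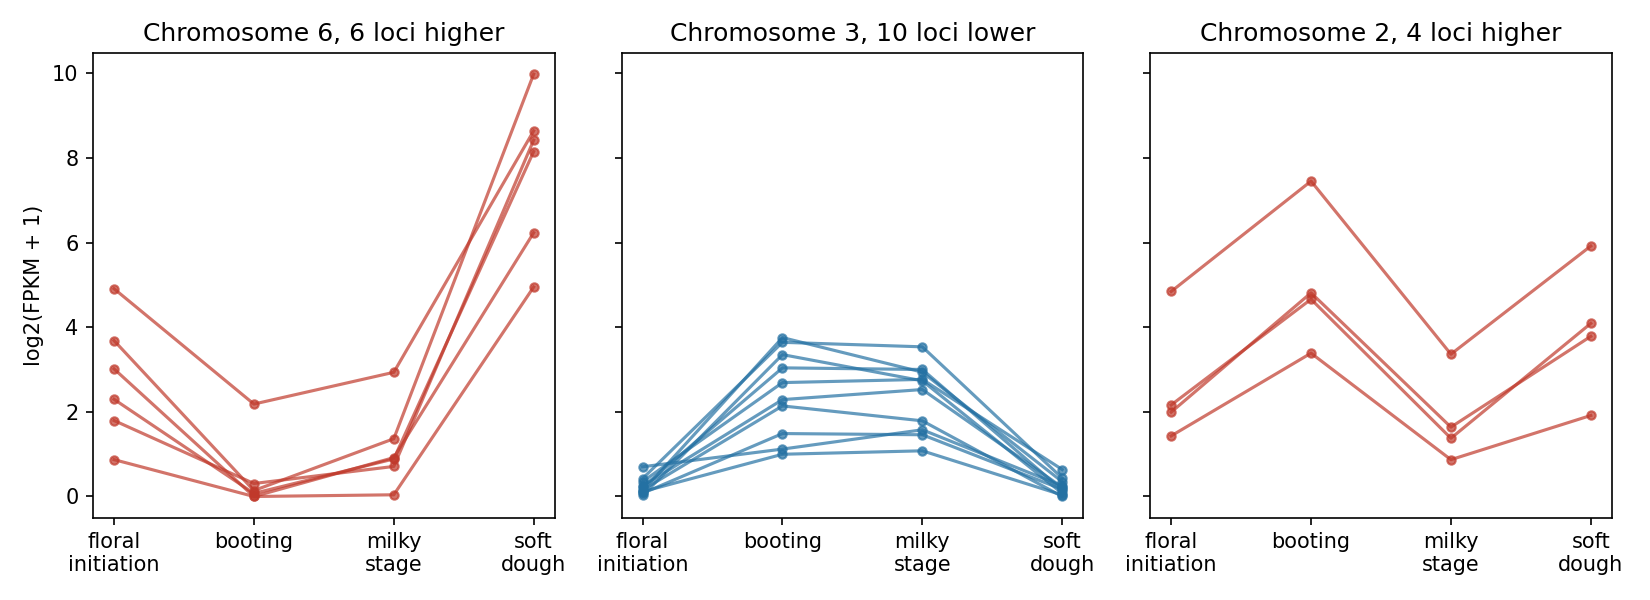
Lines join the log2(FPKM + 1) of single loci over the 4 stages in order, for the 6 neighbours on chromosome 6 (left), the 10 on chromosome 3 (middle) and the 4 on chromosome 2 (right). The left loci peak at soft dough, the middle ones are high at booting and milky stage and near 0 at the other stages, and the right ones alternate between low and high.

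Among the 12 largest rises of loci with 1 ID and at least 5 FPKM, soft dough was the highest of the 4 stages in all 12, and 7 of them were below 5 FPKM at both floral initiation and booting. Picking the largest rises favours a high soft dough value, so the first of these counts is largely fixed by the selection. The drought table lists 11 of the 12 IDs as the only ID of a locus. Of these, 5 stayed below 5 FPKM in each drought column while 6 reached it in at least 1. Those at 4271548 to 4273358 on chromosome 6 and 41202277 to 41206999 on chromosome 10 have another range there, and both are among the 6. On chromosome 6, the locus at 41719162 to 41721830 had 0.930, 6.72, 0.367 and 100.3 FPKM along the stages, and 1.27, 28.5 and 108 FPKM along D1 to D3. On chromosome 8, 12100034 to 12105169 had 1.31, 0.227, 0.750 and 103 FPKM along the stages and 17.9, 45.9 and 74.5 FPKM in the drought columns. These 2 loci were thus high at soft dough and increased with falling soil moisture. By contrast, 53744170 to 53746155 on chromosome 7 had 56.1 FPKM at soft dough, 0.0288 at floral initiation, and was listed at 0 in the other 5 columns. A further kind was the locus on chromosome 10 at 41202277 to 41206999, which had 23.3, 25.8 and 39.3 FPKM at floral initiation, booting and soft dough and only 0.00773 at the milky stage.

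The 12 largest falls were of 2 kinds. In 7 of them booting was above the milky stage. Sobic.004G337132, on chromosome 4 at 66881273 to 66881432, was listed at 0 at floral initiation, had 149 FPKM at booting and 44.1 at the milky stage, and was listed at 0 again at soft dough. Its drought levels were 7.87, 6.28 and 1.81 FPKM. Its printed range of 159 bp is short, and the number of fragments behind its FPKM values is not known. Sobic.004G303466, at 64241689 to 64242477 on the same chromosome, had a listed 0, then 57.2, 42.1 and 0.227 FPKM, and at most 2.14 FPKM under drought.

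The other 5 of these falls were below 5 FPKM at floral initiation and at booting, so that the milky stage was the single high stage. Picking the largest falls favours a high milky stage value, so this kind is partly set by the selection. On chromosome 7, the locus at 342898 to 345271 had 0.139, 0.0389, 106 and 2.30 FPKM. On chromosome 4, 33580159 to 33584485 had 0.114, 0.726, 26.3 and 0.0214 FPKM, and 9999834 to 10001385 had 0.0660, 0.743, 30.1 and 0.770. On chromosome 9, 46821033 to 46826334 had 16.3 FPKM at the milky stage and at most 0.267 in the other stages, but 870, 550 and 6.93 FPKM at D1, D2 and D3.

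The levels of the earlier stages, which the comparison did not use, divide the called loci further. For each called locus, floral initiation and booting were set nearer to the milky stage or nearer to the soft dough level on the log2 scale. Of the 1355 higher loci, 698 (51.5%) had both earlier stages nearer to the milky stage, and their median FPKM was 0.965, 1.32, 1.75 and 9.84 from the first to the last stage. Another 278 (20.5%) had both nearer to soft dough, with medians of 15.7, 15.03, 3.16 and 11.6 FPKM, a dip at the milky stage. In 211 (15.6%) only floral initiation was nearer to soft dough, and in 168 (12.4%) only booting. These shares are partly fixed by the selection: a low milky stage value or a high soft dough value, by chance or not, is what makes a locus called higher, and the first favours a dip and the second a single high soft dough. Soft dough exceeded each of the 3 other stages by at least 1 log2 unit at 576 loci, and 244 of the higher loci were below 1 FPKM in all 3.

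Of the 767 lower loci, 301 (39.2%) had both earlier stages nearer to the milky stage, with medians of 22.5, 26.2, 14.5 and 4.68 FPKM. In 239 (31.2%) both were nearer to soft dough, with medians of 1.33, 1.74, 11.2 and 2.73 FPKM, a peak at the milky stage. The selection favours both of these classes in the same way. In 196 (25.6%) only floral initiation was nearer to soft dough, with medians of 1.97, 11.1, 9.49 and 1.56 FPKM, and in 31 (4.04%) only booting was. Soft dough was below each of the other stages by at least 1 log2 unit at 252 loci.

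**Figure D3:**
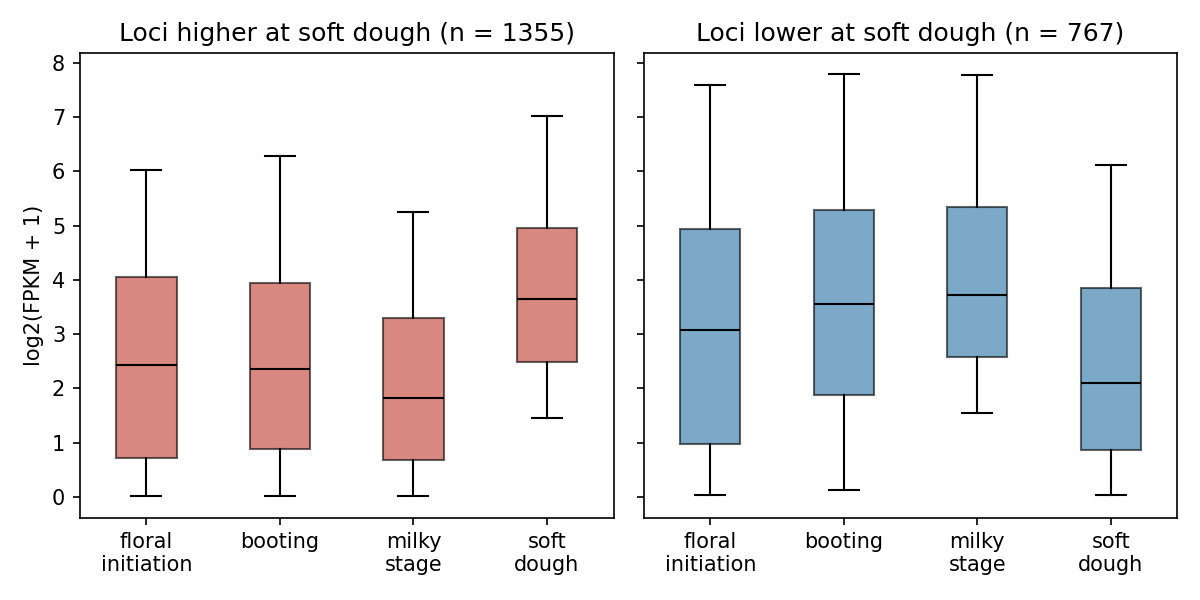
Boxes show log2(FPKM + 1) at the 4 stages for the 1355 loci called higher (left) and the 767 called lower (right) at soft dough, with the median as a line, the quartiles as the box and the 5th to 95th percentile as whiskers. The higher loci had median levels of 4.40, 4.10, 2.56 and 11.5 FPKM along the stages and the lower loci 7.41, 10.8, 12.2 and 3.27 FPKM.

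Neighbouring loci with a shared course were found among the lower loci too. Over 16862 measured loci in order along the chromosomes, 1 per printed range, there were 7 runs of at least 4 called in one direction, with 38 loci in all. They comprised 2 higher and 5 lower runs. The number of runs fell to 2 with a pseudocount of 5 FPKM and to 1 with ranges of 1000 bp or more alone, and was 11 with a pseudocount of 0.1 FPKM. On chromosome 3, 10 loci between 28831985 and 28861779 had median levels of 0.140, 4.67, 5.21 and 0.143 FPKM, and 2 of them have no ID. The highest of them at the milky stage, at 28848740 to 28849211, had 0.341, 11.5, 10.6 and 0.351 FPKM, and 1.35, 1.00 and 0.797 FPKM at D1 to D3. A run of 6 on the same chromosome and a run of 4 on an unplaced scaffold had the same course in their medians. Those of the latter were 0.198, 12.9, 8.08 and 0.117 FPKM. Taken per locus as booting and milky stage both at least 1 log2 unit above floral initiation and soft dough, this course was found at 117 (15.3%) of the 767 lower loci. Some members of these runs fell short of it. Its step from milky stage to soft dough is the call itself, so the 117 are all such loci among the 17947 measured. Of the 117, 25 lay on chromosome 3 and 17 had no ID, beside 2603 and 986 of all 17947 measured loci. Members of the chromosome 3 runs above are among the 25. The reverse course was found at 115 (8.49%) of the higher loci, likewise all such loci among those measured, with medians of 13.2, 2.84, 2.79 and 13.05 FPKM.

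A pair of other runs alternated from stage to stage. On chromosome 2, 4 loci between 65291663 and 65318342 were called higher, with medians of 3.23, 25.7, 1.85 and 14.4 FPKM. The most abundant of them, with 2 IDs at 65303305 to 65310093, had 27.7, 173.9, 9.28 and 59.4 FPKM along the stages and 489, 282 and 186 FPKM at D1 to D3. On chromosome 1, 4 loci between 21509024 and 21540307 alternated the other way, with medians of 7.13, 1.78, 8.05 and 2.35 FPKM. A second run on chromosome 6, of 4 loci between 54727104 and 54759119, was lower at soft dough with medians of 29.4, 22.2, 46.01 and 8.45 FPKM. Its members did not share one course before the milky stage: the first had 29.7, 115 and 60.2 FPKM and then 11.6 at soft dough, and the fourth had 7.51, 7.80, 14.1 and 3.27 FPKM. The drought levels of the first were 128, 125 and 35.6 FPKM and those of the fourth 18.7, 19.4 and 4.39, both lowest at D3.

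The share of called loci differed with their level and with the length of the printed range. Between level classes the share of loci called higher ran from 5.30% (1 to 2 FPKM) to 8.64% (2 to 5 FPKM) and the share called lower from 2.26% (1 to 2 FPKM) to 5.96% (100 FPKM or more). A locus at 1 to 2 FPKM can hardly exceed the call threshold with a pseudocount of 1, so its low shares are set by the rule. Of the 78 measured loci under 500 bp, 32 (41.0%) were called lower and 5 (6.41%) higher. At 500 to 1000 bp these shares were 15.9% lower and 17.5% higher, and at 5000 bp or more they were 2.08% and 5.47%. The median log2 change went from -0.84 in the shortest class to 0.05 in the longest. Booting against floral initiation, which shares no column with this comparison, differed in the opposite direction: 45 of 86 loci under 500 bp (52.3%) were called higher at booting, with a median log2 change of 1.03. The 93 loci under 500 bp at 1 FPKM or more in any stage had median levels of 1.47, 4.38, 3.09 and 1.02 FPKM along the stages, so that booting and milky stage were the high columns. The part of length in the calls was not tested. With ranges of 1000 bp or more alone, 1240 loci were higher and 635 lower.

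**Figure D4:**
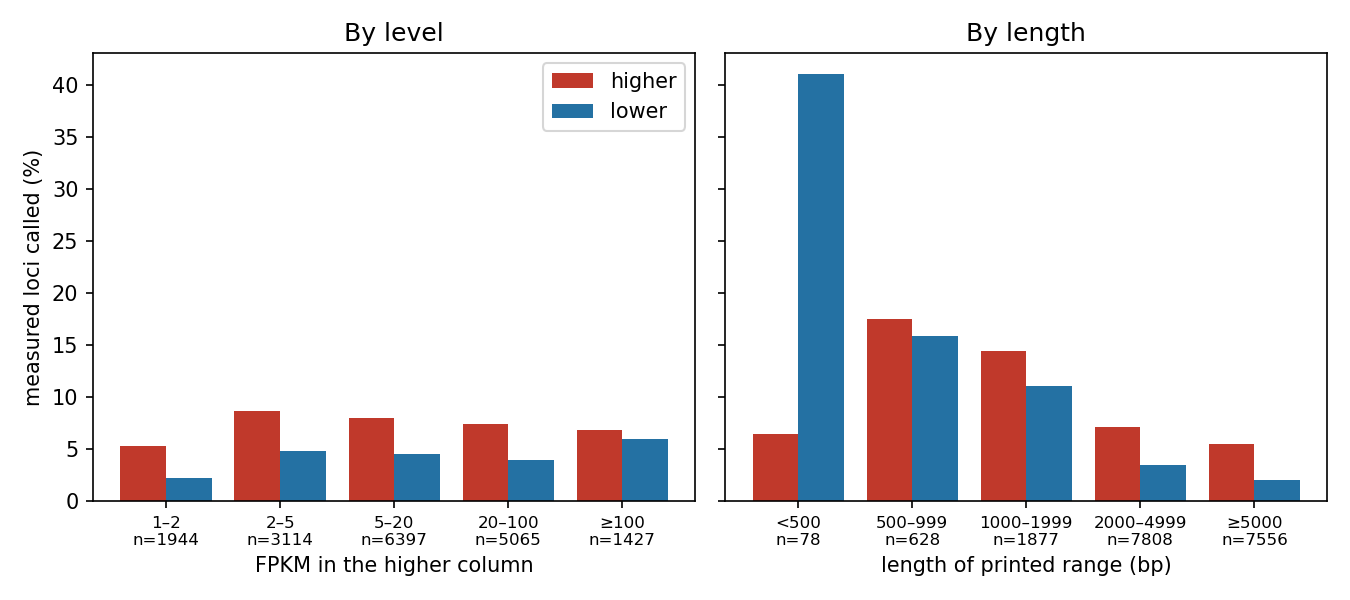
Bars show the percentage of measured loci called higher (red) or lower (blue) at soft dough, by the FPKM of the higher column (left) and by the length of the printed range in bp (right), with the number of loci under each class. The share called lower runs from 2.26% to 5.96% over the level classes, and from 41.0% of the 78 loci under 500 bp to 2.08% of those at 5000 bp or more.

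Calls were spread over the whole genome. The share of measured loci called higher ran from 6.68% on chromosome 3 to 8.38% on chromosome 7, and the share called lower from 3.37% on chromosome 7 to 5.38% on chromosome 5, beside 7.55% and 4.27% for all. The 39 measured loci on unplaced scaffolds stood apart, with 12 (30.8%) lower and 3 higher. Loci without an ID were called more often, with 126 (12.8%) higher and 78 (7.91%) lower of 986. Among loci with 1 ID, those whose ID ends in 00 had 3.83% lower and the 916 with another ending 7.75%. At the milky stage 57 of the higher loci were listed at 0, with a median of 2.73 FPKM at soft dough, and 33 of the lower loci were listed at 0 at soft dough.

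The loci called at soft dough were also set beside 2 comparisons that share no column with it. Among the 16586 loci measured in both comparisons, booting was called higher than floral initiation at 5.06% and lower at 3.66%. Of the lower loci at soft dough, 182 of 672 (27.1%) were higher at booting and 42 (6.25%) lower. Of the higher loci, 187 of 1057 (17.7%) were higher at booting and 202 (19.1%) lower. The balance among the higher loci depended on the scaling, with 173 higher and 262 lower at booting when columns were rescaled to the same sum, and 168 and 246 without the 50 most abundant loci in the scaling.

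For drought, the tables were joined where ID and printed range were identical, which leaves out the loci without an ID. Of the joined loci 11602 were measured both here and in D3 against D1, of which 3.15% were higher and 7.32% lower at D3. Of the loci higher at soft dough, 173 of 691 (25.0%) were lower at D3 and 56 (8.10%) higher. Of the loci lower at soft dough, 119 of 443 (26.9%) were lower at D3 and 22 (4.97%) higher. Both sets were thus called at D3 more often than all loci in each direction, and most of their calls were lower, as for all loci. Their median log2 changes at D3 were -0.42 and -0.39, beside 0.01 for all. Levels in the drought table, which was normalized separately, are set beside the earlier stages, since the call fixed the other 2. The 929 higher loci found in both tables had medians of 3.35, 2.29 and 2.36 FPKM at D1, D2 and D3, beside 4.08 at floral initiation and 4.35 at booting, the stage at which the drought plants were harvested. The 503 lower loci had 15.3, 12.7 and 9.13 FPKM in the drought columns, beside 10.1 at floral initiation and 12.6 at booting.

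**Figure D5:**
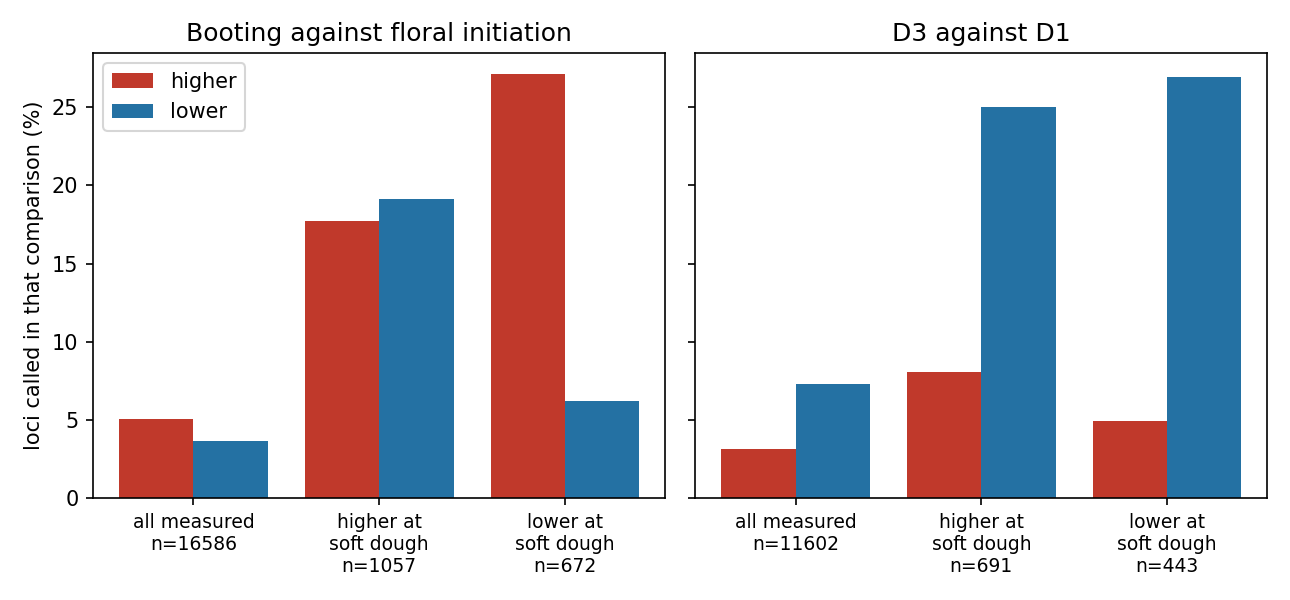
Bars show the percentage of loci called higher (red) or lower (blue) for booting against floral initiation (left) and for D3 against D1 (right), among all loci measured in both comparisons and among those higher or lower at soft dough than at the milky stage, with their numbers below. Loci lower at soft dough were higher at booting in 27.1%, beside 5.06% of all loci. The higher and lower sets were lower at D3 in 25.0% and 26.9%, beside 7.32% of all loci. They were higher at D3 in 8.10% and 4.97%, beside 3.15%.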

How the data were processed

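Total RNA was made into 14 stranded libraries, per the labels' protocols. Cuffdiff, HISAT2 2.0.5, Bowtie2 2.2.9 and cutadapt 1.8.1 are named in the submitters' processing notes, without their roles. Build, filters and strand setting are not given in the sources used, and loci overlapping on opposite strands, or sharing a printed range, may share fragments. The authors deposited FPKM values, 1 column per group, in a development and a drought table normalized apart. The labels of both libraries point to 1 shared column, which was taken as pooled.

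Changes were computed as log2(FPKM + 1) differences (Python 3.11.15, pandas 2.3.3). Loci with at least 1 FPKM in the higher column were measured and those differing by at least 1 were called. The script was tested on simulated data. Library depth is unknown. The smallest non-zero values (1st percentile of FPKM multiplied by length) correspond to 69.0 and 70.2 steps per kilobase at 1 FPKM in the milky stage and soft dough columns. Thus the columns have a like grain. Whether a step is a single fragment is not known, so the fragments behind low or short loci were not counted. Columns of the 2 tables were matched by identical IDs and range, leaving out loci without an ID and pairs present more than once. The match held 26825 loci.

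The 4 loci named by ID are the 2 largest rises and falls of single-ID loci that reach 5 FPKM. The planned 41 gene lists, by product words, had 0 members found and were not run. Members, lists and rules were chosen with earlier results of these data known; the division by length, ID and neighbourhood was chosen after seeing the data.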

Additional observations from a re-analysis of the deposited data

How the results depend on the processing

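No value per library was used, so replicates could not be left out, and no paired analysis was possible because each group has 1 pooled column. Of 13 counts under 11 alternatives, 116 of 143 values stayed within 1.5 times the count as reported. Dropping the filter, 1 of these alternatives, cannot change a call, since a call with a pseudocount of 1 needs at least 1 FPKM. Only the number of runs changed under it, from 7 to 6, and its other counts, included in the 116, are no check. The log2 changes of the 4 named loci kept their sign wherever they could be computed, which is no check, since they were picked as the largest. As deposited, 63.9% of the calls were higher. This share was 69.8% with columns rescaled to the same sum (1546 higher, 668 lower), 59.4% with median-of-ratios factors (1253 and 857) and 66.9% without the 50 most abundant loci in the scaling. The median log2 change went from -0.01 to 0.07, -0.06 and 0.04 under these, so its sign follows the scaling.

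A larger pseudocount lowers the counts by construction. With 5 FPKM added, 596 loci were higher and 329 lower, 2 runs were left, 310 higher loci had both earlier stages nearer to the milky stage, and 102 lower loci had both nearer to soft dough. Of the higher loci, 77 and 66 were then higher and lower at booting and 17 and 56 at D3, and of the lower loci 70 and 11 at booting and 11 and 54 at D3. With 0.1 FPKM added, 1158 loci were lower, 11 runs were found and 366 lower loci had both earlier stages nearer to soft dough. Higher loci that were higher or lower at booting became 283 and 340, and 281 were lower at D3. Lower loci that were lower at booting became 70, and those higher at D3 44. A filter at 5 FPKM, under which fewer loci enter, gave 460 higher loci with both earlier stages nearer to the milky stage, 36 and 112 higher loci that were higher and lower at D3, and 112 and 23 lower loci that were higher and lower at booting. With ranges of 1000 bp or more, an alternative chosen after seeing the data, 1 run was left.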
